A study of Drosophila melanogaster with 33 samples.

Results

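Pdp1 (PAR-domain protein 1, FBgn0016694) encodes a basic leucine zipper activator of the Drosophila circadian clock. In the second feedback loop of that clock, CLK and CYC bind E-boxes and switch on vri and Pdp1, the VRI repressor and the PDP1ε activator then act on the same VP-boxes at Clk, and PER and TIM close the first loop by holding back CLK and CYC. The gene has alternative promoters, and its products also act in muscle and fat body, outside the clock. Open chromatin at Pdp1 was followed here from one promoter to the next, across cell type, time of day, light regime and genotype.

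Pdp1 lies on the minus strand of chromosome 3L at 7811458 to 7867369 in dm6, and 13 transcripts are annotated from 4 start sites. Start 1 at 7867369 serves Pdp1-RF and Pdp1-RO. Start 2 lies 11.8 kb downstream at 7855548 and serves 7 transcripts (Pdp1-RB, -RG, -RI, -RK, -RM, -RN and -RP). Start 3 at 7833073 serves Pdp1-RD and Pdp1-RJ, and start 4 at 7828018 serves Pdp1-RC and Pdp1-RL. The neighbours CG32365 and CG32369 are 1673 and 1633 bp away, and no other gene is nested in Pdp1. Every called peak that touched the stretch from 7811400 to 7868400, which adds the upstream kilobase, was taken. No peak height entered this choice of peaks, but the gene itself was chosen with earlier results of these data known. The 33 libraries had 547 such peaks of 717706 in all, and these merged into 27 elements of the 36210 regions of the series. Elements are numbered from 1 at the 5′ end of the gene to 27 near its 3′ part. The 5′ to 3′ map of the elements shows 9 of them in every library and the others in part of the libraries.

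In ATAC-seq the Tn5 enzyme inserts adapters into accessible DNA, and sequenced ends therefore pile up over open chromatin. Cells came from dissociated adult brains of flies carrying ClkGAL4 and UAS-GFP-NLS in 1 copy, in which a nuclear GFP marks cells where the Clk driver is active. GFP+ cells were sorted as clock neurons and GFP- cells as non-clock cells, with dead cells gated out by DAPI. Wild-type clock neurons were collected in light-dark cycles (LD) at lights-on (ZT0, n = 4) and lights-off (ZT12, n = 4), and in constant darkness (DD) at subjective dawn (CT24, n = 3) and subjective dusk (CT36, n = 3). Clock neurons of per01, a null allele of period, were collected in DD at CT24 (n = 4) and CT36 (n = 4). Non-clock cells came from wild type in LD (n = 4) and DD (n = 3) and from per01 in DD (n = 4), and their labels name no time. The labels write the per01 genotype as per01/Y and name no sex for wild type, whereas the methods describe brains of females and males for ATAC-seq, so the sex of the per01 flies is not settled. The paper speaks of LD and DD experiments, and the sample titles name no batch. A batch that went with the light regime or with the genotype could not be told apart from it. Each library pooled the brains of many flies. The Clk driver is active in several subtypes of clock neurons, which a library mixes, and fewer cells with an open element and less opening in each cell cannot be told apart. The age of the flies was not given in the sources used here. The methods place CT24 and CT36 on the second day of darkness and, like the labels, also name a longer stay in darkness. The methods call the replicates biological.

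The height of an element is given in CPM, the tags (sequenced ends, each counted over 74 bp) that covered its highest summit per 1000000 tags of the library. In units of 1000000 tags, clock neuron libraries held 4.18 to 17.0 and non-clock libraries 16.7 to 36.2. The lowest summit called in a library stood at 1.47 to 2.63 CPM in clock neurons and at 1.18 to 1.55 CPM in non-clock cells, so a weak element was easier to call in non-clock cells. The 95% confidence intervals and the tests below rest on the spread between libraries and not on counting error alone. Peaks at 7 clock neuron marker genes were summed as a check of the sort, and 5 of them (Clk, tim, Dh31, CCHa1 and gl) had a higher median in clock neurons. Pdfr, which encodes the receptor of the neuropeptide PDF, had a lower median, at 46.6 against 50.1 CPM, and Pdf had a median of 0 in both classes. Of 6 glial genes, 5 had a lower median in clock neurons, and the summed list ran from 5.50 to 22.1 CPM there against 29.2 to 53.1 CPM in non-clock cells. Peaks at repo, the gene of a glial homeodomain factor, had a median of 0 in clock neurons and of 4.0 CPM in non-clock cells. The muscle genes Mhc and Act88F and the 3 fat body genes were at 0 in all 33 libraries, and the muscle gene up reached 2.74 CPM in clock neurons and was at 0 in non-clock cells. The summed list of 4 neuronal genes ran from 385 to 561 CPM in clock neurons and from 453 to 554 CPM in non-clock cells, and 3 of the 4 had a lower median in clock neurons. Of 3 photoreceptor genes, 2 had a lower median in clock neurons (norpA, 67.3 against 91.0 CPM), and their sum ran from 49.2 to 96.1 CPM there against 83.3 to 109 CPM in non-clock cells.

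**Figure D1:**
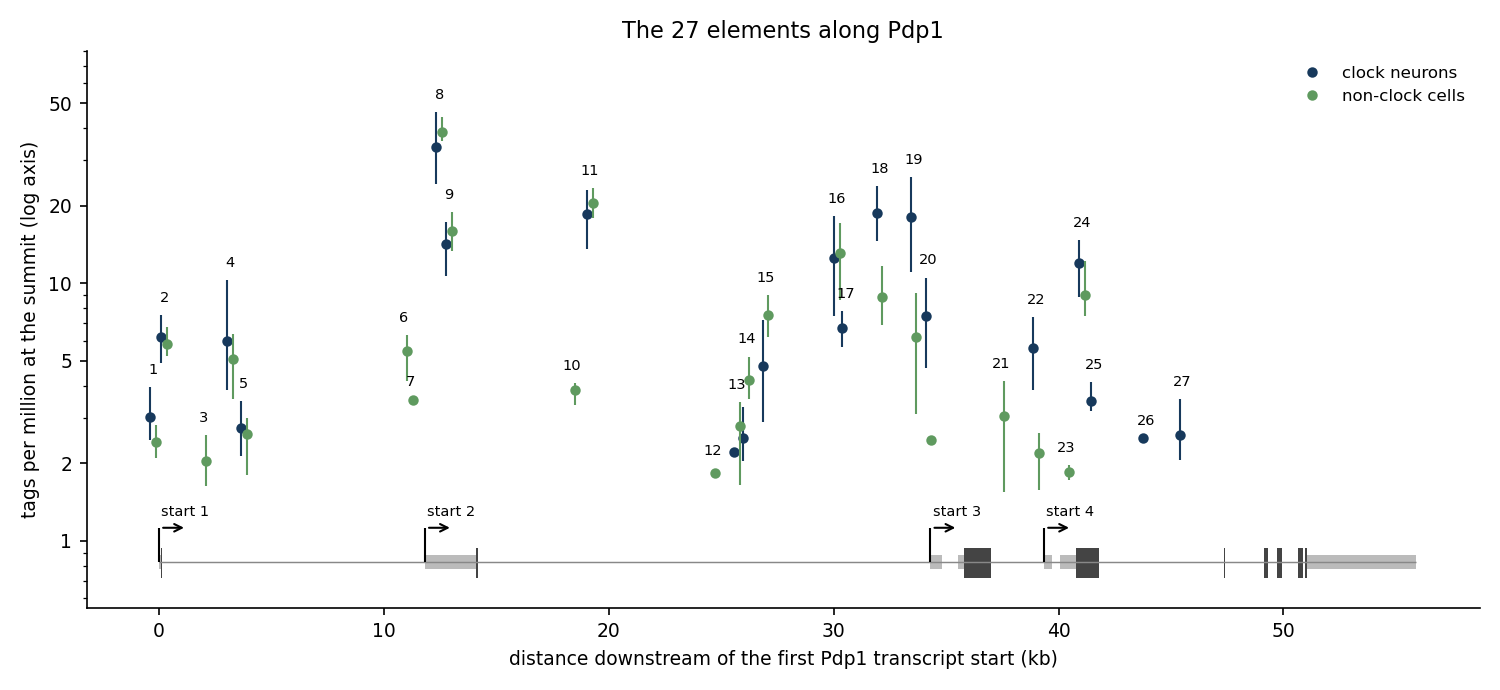
The 27 elements along Pdp1, with distance from the first transcript start in kb on the x axis and summit height in CPM on a log y axis. Points are means over the libraries that called the element and lines run from the lowest to the highest of them, for clock neurons (blue) and non-clock cells (green), above the exons (grey) and coding parts (dark). Elements 18, 19, 20 and 22, before starts 3 and 4, stand higher in clock neurons, and element 8 after start 2 is the highest in both.

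The DNA under these elements was read from the RefSeq copy of dm6 to show where the binding sites of the clock loops lie. The E-box CACGTG, which CLK and CYC bind, was searched with its variant CACGTT, with the VP-box core (TTACGTAA or TTATGTAA) and with ACAATG, a SOX core, on both strands. None of the 25 matches overlapped another. The stretch held 8 E-boxes in 7 of the 27 elements, where 7.26% of all regions held one over their whole length. Within 100 bp of the median summit, E-boxes lay in 4 of 27 windows, against 4.6% of such windows over all 36210 regions. VP-box cores lay in 2 of 27 windows against 1.52%, CACGTT in 4 against 7.68%, and ACAATG in 3 against 13.8%. A match is a description of letters and not evidence that a factor is bound. The 8 E-boxes are printed with their flanks to show how they differ outside the core, on the minus strand, which is the coding strand of Pdp1, with the E-box in capitals.
E-box 1, element 1, chr3L:7867506-7867535: gaagataaagacCACGTGattacattctgc
E-box 2, element 2, chr3L:7867146-7867175: caacaaaggtaaCACGTGcattggcgagag
E-box 3, element 8, chr3L:7855348-7855377: ctaaacagaaagCACGTGtcactgccaagc
E-box 4, element 16, chr3L:7837068-7837097: gtttggctgaaaCACGTGcgcatagtcttc
E-box 5, element 18, chr3L:7835247-7835276: agaccgccggtgCACGTGgtagcgaaacgt
E-box 6, element 19, chr3L:7834120-7834149: ttacgcatacgtCACGTGttgcagacgcac
E-box 7, element 19, chr3L:7833817-7833846: gtgtgtccgcaaCACGTGcttagaactgtg
E-box 8, element 21, chr3L:7829808-7829837: gcttgccgcgcaCACGTGagctcagctgaa

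Of the 8 sites, 3 lie in elements 18 and 19, upstream of start 3, and E-box 7 lies 9 bp from the median summit of element 19. The windows of 201 bp around the summits of these elements are shown together with element 20, which ends 2 bp before start 3. The one time call below falls on element 19. Genotype calls in clock neurons fall on elements 18, 19 and 20 and also on elements 15, 16 and 17. Elements 18, 19 and 20 are intronic for the longer transcripts and overlap no exon. They are printed 5′ to 3′ on the minus strand. Capitals mark an E-box and CACGTT, read here as AACGTG, in elements 18 and 19, and a VP-box core in element 20. In element 18 these matches are separated by 7 bases.
Element 18, chr3L:7835233-7835433: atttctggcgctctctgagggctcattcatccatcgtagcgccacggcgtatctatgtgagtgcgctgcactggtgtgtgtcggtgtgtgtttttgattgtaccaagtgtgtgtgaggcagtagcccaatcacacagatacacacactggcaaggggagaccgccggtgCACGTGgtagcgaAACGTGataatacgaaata
Element 19, chr3L:7833722-7833922: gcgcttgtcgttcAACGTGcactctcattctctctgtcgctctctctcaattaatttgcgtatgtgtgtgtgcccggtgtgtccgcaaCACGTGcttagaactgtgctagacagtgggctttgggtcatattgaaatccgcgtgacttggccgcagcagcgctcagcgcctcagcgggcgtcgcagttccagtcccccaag
Element 20, chr3L:7833075-7833279: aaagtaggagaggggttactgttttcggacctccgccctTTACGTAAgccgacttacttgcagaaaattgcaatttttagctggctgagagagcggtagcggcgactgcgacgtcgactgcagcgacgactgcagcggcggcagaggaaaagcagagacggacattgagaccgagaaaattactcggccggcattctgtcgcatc

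The other VP-box core lies before start 1, in element 1, which also holds E-box 1. That element is printed whole, on the same strand, with the E-box and the VP-box core (TTATGTAA, read here as TTACATAA) in capitals, because it puts both kinds of site in front of the 5′-most start.
Element 1, chr3L:7867473-7867729: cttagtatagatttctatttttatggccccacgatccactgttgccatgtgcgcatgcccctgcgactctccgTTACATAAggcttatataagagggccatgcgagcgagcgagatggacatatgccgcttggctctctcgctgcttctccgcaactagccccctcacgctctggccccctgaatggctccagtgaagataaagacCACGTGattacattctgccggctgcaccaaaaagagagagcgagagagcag

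Each element was compared between groups with limma on log2 tags across all regions of the comparison, and it is called changed below an adjusted p of 0.1 (Benjamini-Hochberg). Where an element had no call in a library, that library's lowest called tags stood in. Groups said below not to overlap are described only, since the share of all regions without overlap was not counted. Between cell types a large part of the gene moved, as did a large part of all regions. In LD, 7 of 17 tested elements were higher and 6 lower in clock neurons than in non-clock cells, where 55.8% of all tested regions were called, 33.9% higher and 21.9% lower. In DD, 5 of 19 were higher and 6 lower (52.5% of all regions, 27.6% higher and 24.9% lower). In per01, 5 of 18 were higher and 5 lower (47.7%, 26.5% higher and 21.1% lower). The counts include 3 elements in LD (10, 20 and 22), 5 in DD (6, 10, 13, 20 and 21) and 4 in per01 (6, 13, 14 and 21) with no call in any library of one cell class. These entered the test through the class where they were called and had stand-in values in the other, so they had to differ, and their changes are given as a description, with no p. The number of calls is not particular to Pdp1, and what follows describes where along the gene they lay.

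By time of day far fewer elements moved. In LD limma called 0 of 15 elements, with 3 at an unadjusted p below 0.05, and it called 0.103% of all regions (0.0359% higher and 0.0667% lower at ZT12). In DD it called 1 of 14, higher at CT36, with 5 at an unadjusted p below 0.05, against 0.635% of all regions (0.164% higher and 0.471% lower). Between the times in per01 limma called 0 of 11, with 0 at an unadjusted p below 0.05, against 0.00594% of all regions (0% higher and 0.00594% lower). Against wild type at CT24, per01 had 5 of 16 elements higher and 1 lower, where 8.16% of all regions were called (3.86% higher and 4.3% lower). Of these, element 17 had no call in any wild-type library at CT24, and the lower one, element 15, had a call in 1 of 4 per01 libraries. At CT36 limma called 0 of 13, with 0 at an unadjusted p below 0.05, against 1.61% of all regions (0.814% higher and 0.792% lower). The comparisons of DD time and of genotype share the wild-type libraries.

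Constant darkness against LD gave 1 of 14 elements higher at dawn (5.52% of all regions called, 2.74% higher and 2.78% lower). At dusk it gave 2 of 16 higher (6.28%, 1.99% higher and 4.28% lower), and in non-clock cells 6 of 18 higher (16%, 7.71% higher and 8.33% lower). In non-clock cells of per01 against wild type, 1 of 20 was lower (4.87%, 2.19% higher and 2.68% lower). That element (10) and 2 of the 6 in non-clock cells by regime (6 and 22) had no call in any library of one group. For a time change that differed between DD and LD limma called 0 of 16, with 1 at an unadjusted p below 0.05 (0.013% of all regions, 0.00434% higher and 0.00868% lower). For one that differed between per01 and wild type it called 0 of 16, with 3 at an unadjusted p below 0.05 (0.047%, 0.0423% higher and 0.0047% lower).

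**Figure D2:**
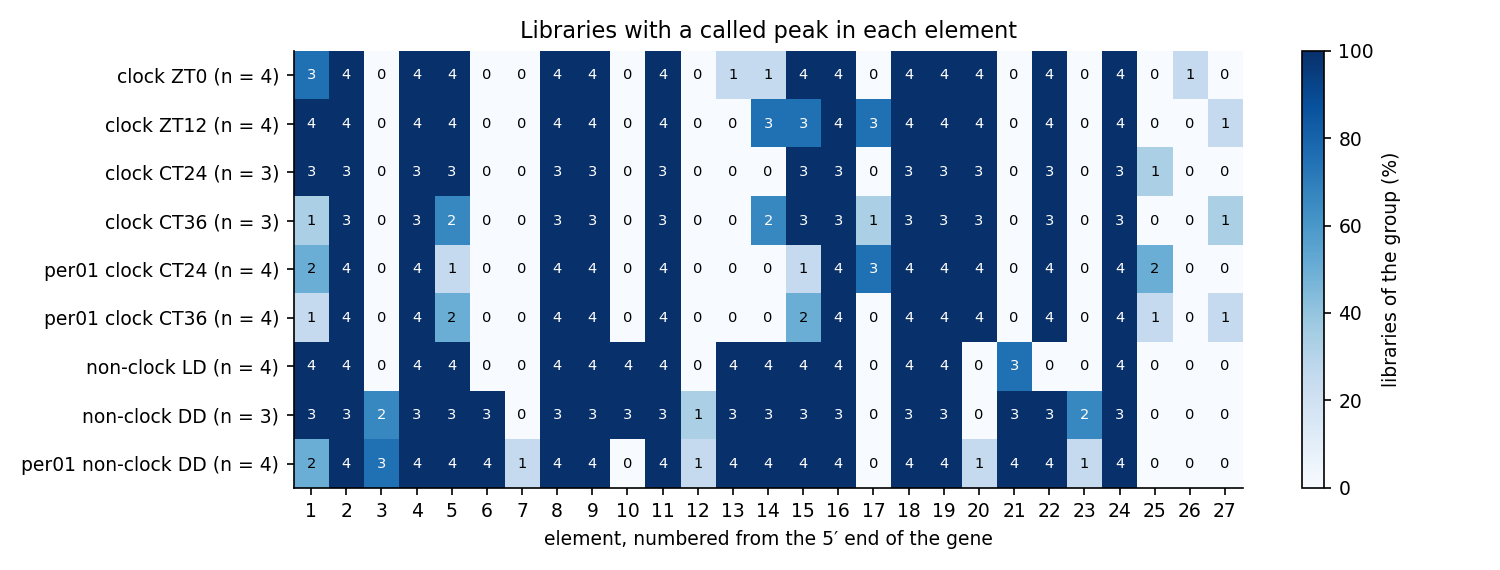
Number of libraries with a called peak for each element (x axis, numbered from the 5′ end) in each group (y axis), with the shade giving the share of the group in percent. Element 20 is present in all 22 clock neuron libraries and in 1 of 11 non-clock libraries, and elements 3, 6, 7, 10, 12, 21 and 23 appear in non-clock cells alone.

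At start 1 the groups were close to each other. Element 2, downstream of that start in the first intron and exon, was called in all 33 libraries. Its height was 5.53 to 6.48 CPM at ZT0, 6.01 to 7.55 at ZT12, 4.90 to 6.64 at CT24 and 5.39 to 6.39 at CT36, and the groups overlapped. In per01 clock neurons it ran from 5.03 to 6.83 CPM, and in non-clock cells from 5.23 to 6.74 CPM. It was called higher in clock neurons than in non-clock cells in LD alone, by 0.25 ± 0.10 (SE) on the log2 scale (adjusted p = 0.042), and this call was lost when libraries were scaled by total tags (0.14) and without LD non-clock replicate 2 (0.21) or 4 (0.23). Its summit sat 108 bp inside the gene in 10 libraries and 228 bp inside it in the other 23, in both cell classes. Element 1, upstream of the start, was weaker. It was called in 14 of 22 clock neuron libraries at 2.46 to 3.96 CPM and in 9 of 11 non-clock libraries at 2.09 to 2.82 CPM.

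Behind start 1, the first intron held elements 3, 4 and 5. Element 4, at 7864017 to 7864444, was called in all 33 libraries. Its height in the 4 ZT0 libraries was 8.54, 5.83, 6.60 and 8.44 CPM, and in the 4 ZT12 libraries it was 5.64, 3.86, 5.03 and 4.51 CPM. Every ZT0 library was above every ZT12 library, but the change of -0.64 ± 0.18 on the log2 scale did not pass over all regions (adjusted p = 0.36). In DD the values overlapped, with 4.46 to 6.32 CPM at CT24 and 4.62 to 5.13 CPM at CT36. In per01 it was 4.27 to 6.65 CPM at CT24 and 5.10 to 10.3 CPM at CT36, which includes the highest value of the element. The same element was called higher in clock neurons than in non-clock cells in LD (0.55 ± 0.21, adjusted p = 0.034), a call lost without LD non-clock replicate 3 (0.46, adjusted p = 0.11). Element 5 was near the floor, at 1.80 to 3.48 CPM in the 27 libraries that called it, and element 3 was called in 5 non-clock libraries of DD.

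Start 2 carried the tallest peak of the gene. Element 8 spans 7854706 to 7856146 and had its highest summit in all 33 libraries 640 bp downstream of the start, in an exon annotated as 5′ UTR. Heights there were 25.7 to 37.8 CPM at ZT0, 24.3 to 32.7 at ZT12, 32.5 to 36.1 at CT24 and 33.8 to 37.7 at CT36. In per01 they were 33.5 to 46.3 CPM at CT24 and 30.6 to 38.8 CPM at CT36, and in non-clock cells 35.6 to 44.2 CPM. A lower summit 73 bp upstream of the start was called in 19 of 22 clock neuron and 7 of 11 non-clock libraries, at a mean of 7.61 and 9.70 CPM. The element did not pass in any comparison of time or genotype, and it was called lower in clock neurons than in non-clock cells in LD (-0.25 ± 0.08, adjusted p = 0.014). Element 9, also in the 5′ UTR exon, was also lower in LD (-0.29 ± 0.09, adjusted p = 0.011), with 10.7 to 17.3 CPM in clock neurons and 13.3 to 18.9 CPM in non-clock cells.

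Element 6, in the intron 938 bp before start 2, was called in no clock neuron. It was absent from the 4 LD non-clock libraries too, and present in all DD non-clock libraries of wild type (4.17, 5.70 and 6.07 CPM) and of per01 (5.66, 5.13, 5.18 and 6.28 CPM). With the lowest summit of a library standing in for a missing call, DD was higher than LD in non-clock cells by 1.99 on the log2 scale, and by 0.70 with the highest number of tags that the local background would have left uncalled (the local limit below). Clock neurons stood at -1.51 in DD and -1.44 in per01 against non-clock cells, and at -0.51 and -0.57 with the local limit. The size of these differences rests on the stand-in value.

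The stretch between starts 2 and 3 held elements 9 to 20, and elements 10 to 20 were intronic. Element 11 was as tall as the peaks near start 3, at 13.6 to 23.1 CPM in clock neurons and 17.9 to 23.4 CPM in non-clock cells. It was called lower in clock neurons in LD (-0.31 ± 0.08, adjusted p = 0.0043), by -1.95 with regions built from summits within 100 bp of each other (adjusted p = 0.070). Its summit lay at one of 2 places about as often in clock neurons (12 libraries against 10), while 10 of 11 non-clock libraries had the upstream one. Element 10 was called in wild-type non-clock cells alone, with 4.09, 4.07, 3.86 and 3.82 CPM in LD and 3.92, 3.94 and 3.36 CPM in DD. None of the 4 per01 non-clock libraries called it, and per01 stood at -1.34 on the log2 scale against wild type with the lowest summits as stand-ins and at -0.66 with the local limit. Clock neurons, none of which called it, stood against non-clock cells at -1.07 in LD and -1.02 in DD, and at -0.57 and -0.40 with the local limit.

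Elements 13, 14 and 15 follow one another in the intron, and element 15 was the tallest of them. Element 15 was called in all 11 non-clock libraries at 6.21 to 8.99 CPM. In wild-type clock neurons it was 3.65, 3.42, 3.20 and 3.42 CPM at ZT0, and it was 2.91, 4.35 and 3.75 CPM in the 3 ZT12 libraries that called it. In DD it was 5.87, 6.85 and 5.82 CPM at CT24 and 7.22, 4.98 and 5.13 CPM at CT36. Every DD library was above every LD library that called the element. Against non-clock cells it changed in LD by -1.07 ± 0.15 on the log2 scale (adjusted p = 2.7e-05) and in DD by -0.48 ± 0.12 (adjusted p = 0.0068). The DD call was lost in 1 fit over all libraries (adjusted p = 0.11). In per01 it was called in 3 of 8 clock neuron libraries and entered the test through the non-clock libraries, so no p is given. It stood there at -1.22 with the lowest summits as stand-ins and at -0.34 with the local limit.

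The change of element 15 with the light regime passed at dawn (0.76 ± 0.18, adjusted p = 0.055) and at dusk (0.81 ± 0.25, adjusted p = 0.099). The dawn call was lost without CT24 replicate 1 (0.81), 2 (0.73) or 3 (0.76). The dusk call was lost without ZT12 replicate 1 (0.77), 3 (0.89) or 4 (0.64) or CT36 replicate 1 (0.67), 2 (0.91) or 3 (0.86), and in 6 of 9 other settings, among them missing calls at the local limit, where the change was 0.47 (adjusted p = 0.22). In per01 the element was called in 1 of 4 libraries at CT24 (4.86 CPM) and in 2 of 4 at CT36 (6.17 and 5.10 CPM). Against wild type at CT24 it entered the test through the wild-type libraries, so no p is given for its call. It stood there at -1.36 on the log2 scale with the lowest summits as stand-ins. With missing calls at the local limit it stood at -0.27 and was not called (adjusted p = 0.38). The call was also lost without CT24 replicate 1 (-1.41) or 2 (-1.32).

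Element 14 was called in all 11 non-clock libraries (3.57 to 5.20 CPM) and in 6 of 22 clock neuron libraries (2.05 to 3.32 CPM). Element 13 was called in the same 11 (1.65 to 3.46 CPM) and in 1 clock neuron library. Element 14 was called lower in clock neurons in LD and in DD, by -1.04 and -0.84 on the log2 scale, and was not called with missing calls at the local limit (-0.44 and -0.04). No per01 clock neuron library called element 14, and no DD or per01 clock neuron library called element 13. There the sign turned with the stand-in value, for element 13 from -0.74 to 0.52 in DD and from -0.64 to 0.75 in per01, and for element 14 from -1.06 to 0.33 in per01.

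Element 16 is an intronic peak that holds E-box 4 and was not called between cell classes, at 7.47 to 18.3 CPM in clock neurons and 8.60 to 17.2 CPM in non-clock cells. It was higher in per01 than in wild type at CT24. The values were 15.9, 15.7, 18.3 and 14.7 CPM in per01 against 10.9, 11.9 and 10.9 CPM in wild type, with no overlap, and the rise was 0.47 ± 0.09 on the log2 scale (adjusted p = 0.012). At CT36 the ranges overlapped, at 14.5 to 17.2 CPM in per01 and 11.5 to 16.1 CPM in wild type. Non-clock cells in DD had a like level, at 14.9 to 17.2 CPM in per01 and 12.1 to 15.2 CPM in wild type. These ranges overlapped, and the element was not called between genotypes there. The higher level in per01 is thus not shown to be particular to clock neurons. Element 16 was also higher in DD than in LD in non-clock cells, 13.5, 15.2 and 12.1 CPM against 12.4, 9.91, 9.17 and 8.60 CPM (0.47 ± 0.12, adjusted p = 0.036). That call was lost without DD non-clock replicate 1 (0.46) or 2 (0.40). In clock neurons at dusk it was 11.7, 16.1 and 11.5 CPM in DD against 9.32, 9.84, 9.33 and 7.79 CPM in LD (0.49 ± 0.13, adjusted p = 0.071), a call lost in 5 of 7 fits without 1 library (CT36 replicate 1, 0.59, 2, 0.34, and 3, 0.55, and ZT12 replicate 1, 0.50, and 3, 0.50) and when libraries were scaled by total tags (0.51).

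Element 17 lies within 100 bp of element 16 and was called in 7 clock neuron libraries alone, 3 of them at ZT12, 1 at CT36 and 3 in per01 at CT24. Its height there was 5.66 to 7.83 CPM. The 3 wild-type CT24 libraries did not call it, and per01 stood at 1.56 on the log2 scale against them with the lowest summits as stand-ins and at 0.79 with the local limit.

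**Figure D3:**
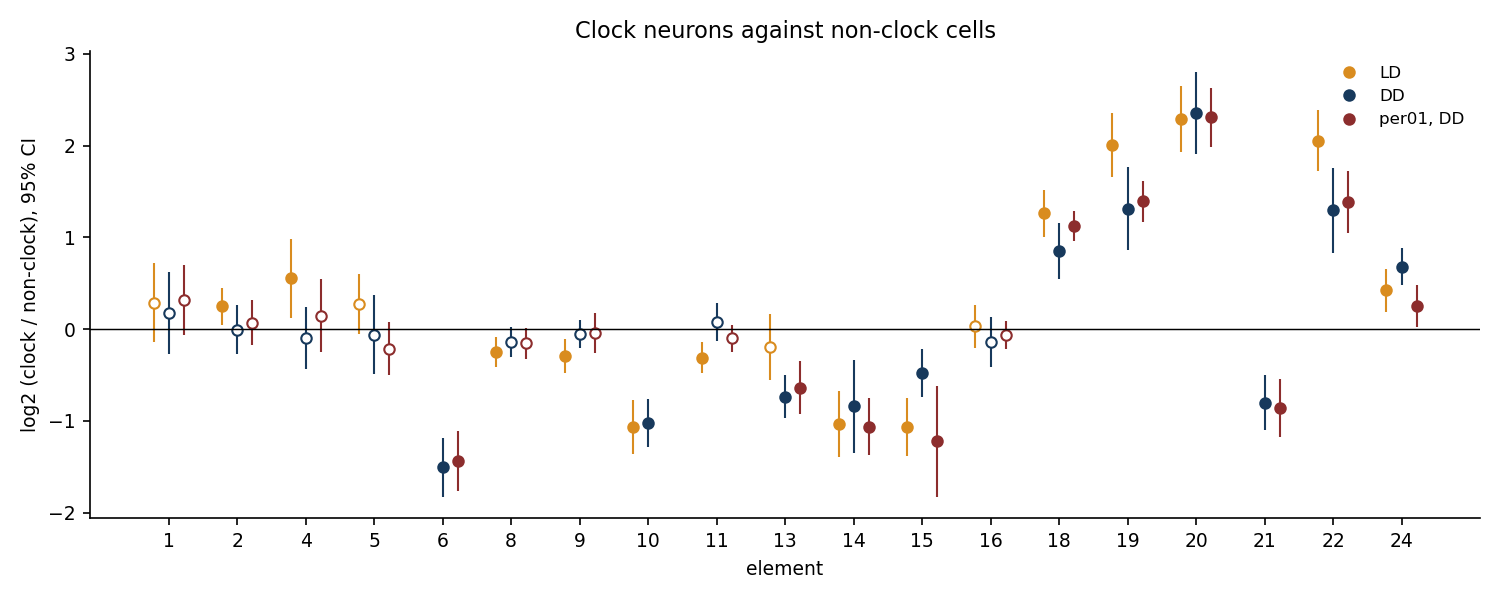
Change of each tested element between clock neurons and non-clock cells (y axis, log2, with 95% confidence intervals) in LD, in DD and in per01, by element number on the x axis. Filled points passed an adjusted p of 0.1, which for elements 6, 10, 13 and 21, element 14 in per01, element 20 in LD and DD and element 22 in LD rests on stand-in values for a whole class. Elements 18, 19, 20 and 22 lie at 0.85 or above in all 3 comparisons, and element 8 lies between -0.25 and -0.14.

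Before start 3, clock neurons had more open chromatin than non-clock cells at elements 18, 19 and 20. Elements 18, 19 and 20 lie 2260, 749 and 81 bp upstream of the start by their median summits. Element 20, at the start itself, was called in all 22 clock neuron libraries at 4.71 to 10.5 CPM. Of 11 non-clock libraries, 1 of per01 called it, at 2.46 CPM, although these were the deeper libraries with floors of 1.18 to 1.55 CPM. In LD and wild-type DD, where no non-clock library called it, clock neurons stood at 2.29 and 2.36 on the log2 scale against the stand-in values, and at 1.78 and 1.58 with the local limit. In per01, stand-in values filled the non-clock libraries without a call, so no p is given. Clock neurons stood there at 2.31, and at 1.77 with the local limit.

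Element 19 ranged from 11.1 to 25.9 CPM in clock neurons and from 3.11 to 9.16 CPM in non-clock cells. The classes did not overlap. It was higher in clock neurons by 2.01 ± 0.16 in LD, 1.31 ± 0.21 in DD and 1.39 ± 0.11 in per01 (adjusted p = 9.8e-08, 0.00039 and 3.1e-08). Its called length was 577 to 673 bp in clock neurons and 259 to 387 bp in non-clock cells. Element 18 ranged from 14.6 to 23.9 CPM in clock neurons and from 6.87 to 11.7 CPM in non-clock cells, also without overlap. It was higher by 1.26 ± 0.12 in LD, 0.85 ± 0.14 in DD and 1.12 ± 0.08 in per01 (adjusted p = 5.3e-07, 0.00049 and 6.9e-09). Element 18 has a second summit 2098 bp upstream of start 3, used in 4 clock neuron libraries, and with regions built from summits within 100 bp of each other its calls in LD (0.84) and per01 (-0.11) were lost.

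Start 4 showed the same contrast. Element 22 covers the start and was called in all 22 clock neuron libraries at 3.87 to 7.42 CPM. In non-clock cells it was called in none of 4 LD libraries, in all 3 wild-type DD libraries (1.58, 2.33 and 2.63 CPM) and in all 4 of per01 (1.67, 2.29, 2.42 and 2.45 CPM). Clock neurons were higher by 1.29 ± 0.21 in DD and 1.38 ± 0.16 in per01 (adjusted p = 0.00050 and 2.9e-06), and in LD they stood at 2.05 against the stand-in values. The per01 call was lost with regions built from summits within 100 bp (0.66). The highest summit lay 56 bp upstream of start 4 in 13 of 22 clock neuron libraries and in 1 of 7 non-clock libraries that called it. In the others it lay about 357 bp upstream. No comparison of time or genotype in clock neurons called element 22, and its groups overlapped, at 5.36 to 6.23 CPM at ZT0, 4.27 to 5.86 at ZT12, 4.02 to 6.53 at CT24 and 3.87 to 6.31 at CT36.

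The contrast at starts 3 and 4 with starts 1 and 2 was seen in the same libraries. Against non-clock cells in DD, elements 2 and 8 changed by -0.01 ± 0.12 and -0.14 ± 0.07 on the log2 scale and were not called, while element 22 changed by 1.29 and element 20 had no call in the non-clock libraries. The glial and photoreceptor genes moved with this comparison, being lower in clock neurons, and their part in the result was not tested. In LD, scaling by the median of ratios and by total tags differed by 0.11 on the log2 scale over all regions.

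Element 24, in the exon downstream of start 4, was open in every library, at 8.86 to 14.7 CPM in clock neurons and 7.46 to 12.2 CPM in non-clock cells. It was higher in clock neurons in LD (0.42 ± 0.11, adjusted p = 0.0041), in DD (0.68 ± 0.09, adjusted p = 0.00013) and in per01 (0.25 ± 0.11, adjusted p = 0.072). The per01 call was lost without CT24 replicate 2 (0.24), CT36 replicate 1 (0.24) or 4 (0.20), or non-clock replicate 1 (0.18) or 4 (0.27). Element 21, between starts 3 and 4 and holding E-box 8, was called in 10 of 11 non-clock libraries (1.55 to 4.17 CPM) and in no clock neuron library. Clock neurons stood at -0.80 in DD and -0.86 in per01 with the lowest summits as stand-ins, and at 0.45 and 0.55 with the local limit. Elements 7, 12, 23 and 25 to 27 were called in 1 to 4 libraries each, and none of them was called changed. Of these, elements 7, 12, 26 and 27 had calls in too few libraries of any comparison to be tested. Elements 7, 12 and 23 were seen in non-clock cells alone (1.72 to 3.54 CPM) and elements 25 to 27 in clock neurons alone (2.07 to 4.15 CPM).

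**Figure D4:**
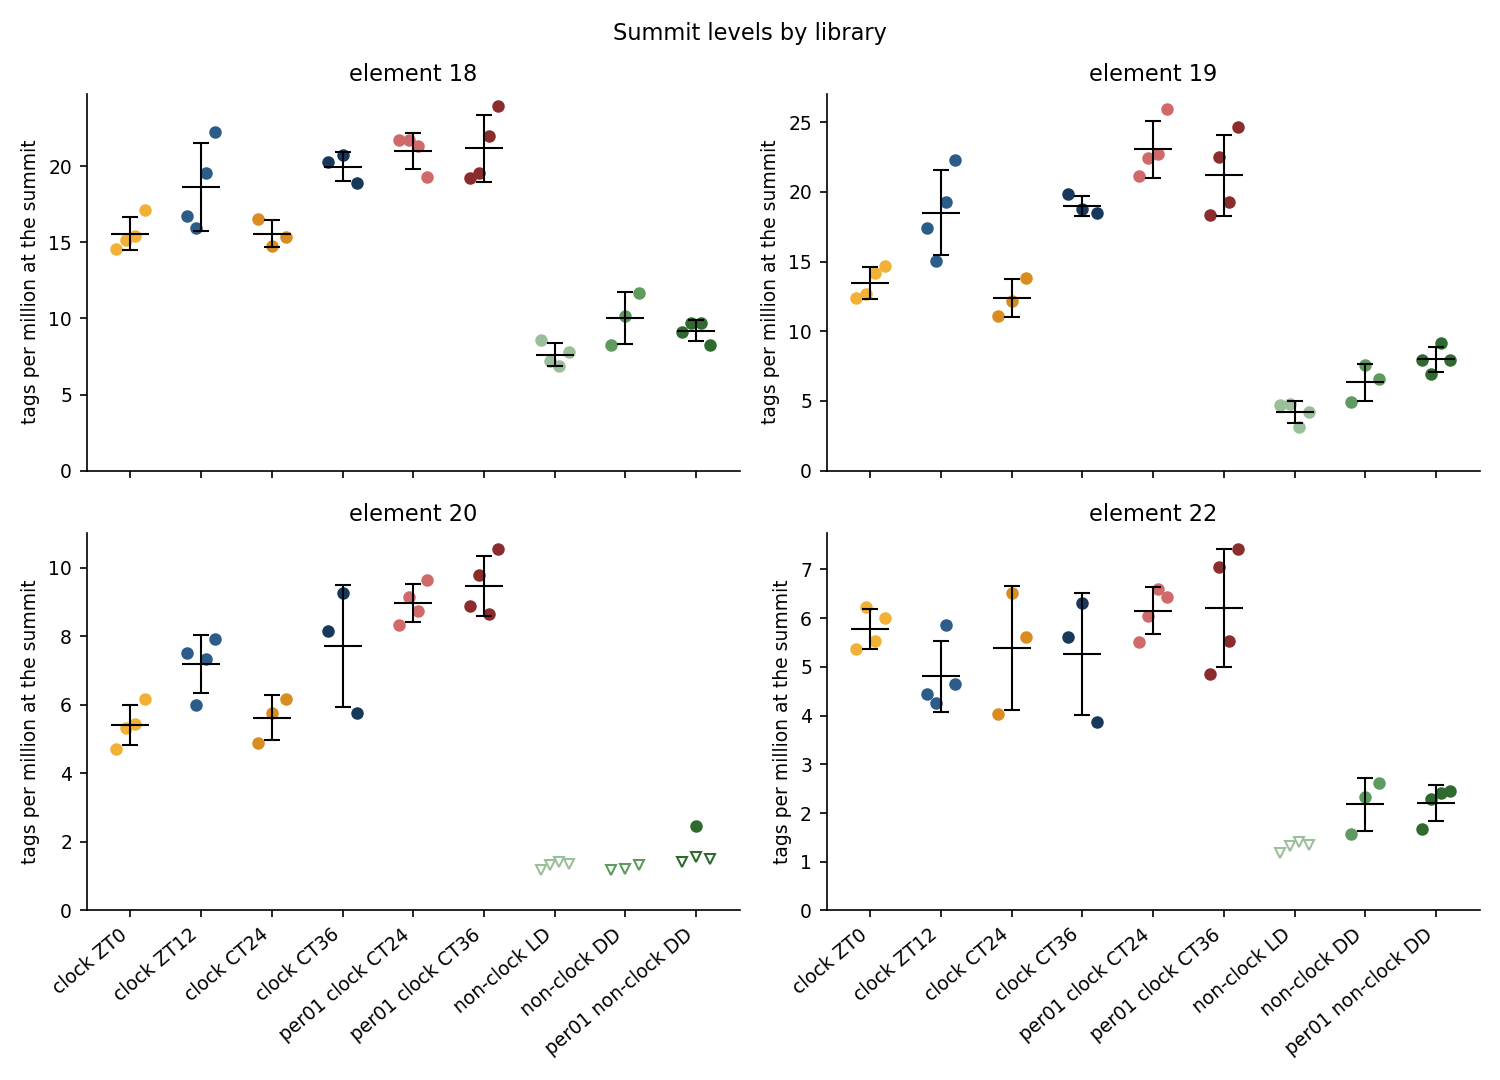
Height of elements 18, 19, 20 and 22 (CPM at the summit, y axis) in each of the 33 libraries, by group on the x axis. Filled points are libraries with a call, open triangles mark the lowest summit called in a library without one, and bars give the mean ± SD of groups in which every library called the element. Element 19 runs from 11.1 to 14.7 in wild type at ZT0 and CT24 and from 15.0 to 25.9 at ZT12, at CT36 and in per01.

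With time of day, element 19 in DD was the one call. In LD its height was 12.4, 12.7, 14.2 and 14.7 CPM at ZT0 and 17.4, 15.0, 19.3 and 22.3 CPM at ZT12. In DD it was 11.1, 12.2 and 13.9 CPM at CT24 and 19.8, 18.8 and 18.5 CPM at CT36. In both regimes every dusk library was above every dawn library, which is a description and not a test. The rise in DD was 0.65 ± 0.11 on the log2 scale, or 1.57-fold, and was called (adjusted p = 0.043). In LD it was 0.42 ± 0.14, or 1.34-fold, and was not called over 19486 regions (adjusted p = 0.56). The difference between the regimes was 0.22 ± 0.21 (95% confidence interval -0.21 to 0.65, adjusted p = 1.0), so the DD and LD changes were not shown to differ.

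The DD call of element 19 is near the threshold. It was lost without CT24 replicate 1 (0.57) or 2 (0.61) or CT36 replicate 1 (0.64) or 2 (0.67), with adjusted p from 0.14 to 0.20. It was also lost in 1 fit over all libraries (adjusted p = 0.12) and with regions built from summits within 100 bp (adjusted p = 0.19). Elements 18 and 20 beside it had the same sign without passing, though element 18 in DD was called with missing calls at the local limit (adjusted p = 0.046) and without CT36 replicate 3 (adjusted p = 0.077). Element 18 was 14.6, 15.2, 15.4 and 17.1 CPM at ZT0 and 16.8, 15.9, 19.6 and 22.3 CPM at ZT12. In DD it was 16.5, 14.8 and 15.3 CPM at CT24 and 20.3, 20.7 and 18.9 CPM at CT36, without overlap. Element 20 was 4.71 to 6.16 CPM at ZT0 and 5.99 to 7.93 CPM at ZT12, and 4.90 to 6.18 CPM at CT24 against 8.14, 9.25 and 5.76 CPM at CT36. Their changes were 0.23 and 0.38 in LD and 0.39 and 0.47 in DD. Element 11 went the other way in DD, with 20.0, 22.7 and 22.8 CPM at CT24 and 18.8, 18.2 and 17.8 CPM at CT36. Its groups did not overlap, and the change of -0.22 ± 0.09 did not pass (adjusted p = 0.39).

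In per01, where PER is missing, element 19 was within or above the range of the wild-type dusk libraries at both times. It was 21.1, 22.4, 22.7 and 25.9 CPM at CT24 and 18.3, 22.5, 19.3 and 24.6 CPM at CT36. The change between these times was -0.14 ± 0.11 (95% confidence interval -0.38 to 0.09, adjusted p = 1.0). Against wild type at CT24 the element was higher by 0.85 ± 0.12, or 1.80-fold (adjusted p = 0.0023), and all 4 per01 libraries were above all 3 of wild type. This call held without any one library, at 0.76 to 0.97. At CT36 the difference was 0.04 ± 0.11 (95% confidence interval -0.19 to 0.28, adjusted p = 0.91), and it was -0.034 without per01 CT36 replicate 4. The change with time differed between per01 and wild type by -0.80 ± 0.17, which did not pass over 21272 regions (adjusted p = 0.29), although it was called without CT24 replicate 3 (-0.92) or per01 CT36 replicate 4 (-0.88).

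Its neighbours were higher in per01 at CT24 too. Element 20 was 8.32, 9.13, 8.74 and 9.64 CPM in per01 against 4.90, 5.77 and 6.18 CPM in wild type (0.62 ± 0.15, adjusted p = 0.043). Element 18 was 21.7, 21.7, 21.4 and 19.3 CPM against 16.5, 14.8 and 15.3 CPM (0.39 ± 0.09, adjusted p = 0.028). The groups did not overlap at either element. The call at element 20 was lost without CT24 replicate 1 (0.52) or 2 (0.61), and in 2 of 9 other settings (adjusted p up to 0.16). That at element 18 was lost without CT24 replicate 2 (0.31), and with regions built from summits within 100 bp element 18 changed by -0.47. Elements 2, 8 and 22, at the other starts, were not called in this comparison, with changes of 0.02, 0.11 and 0.17.

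**Figure D5:**
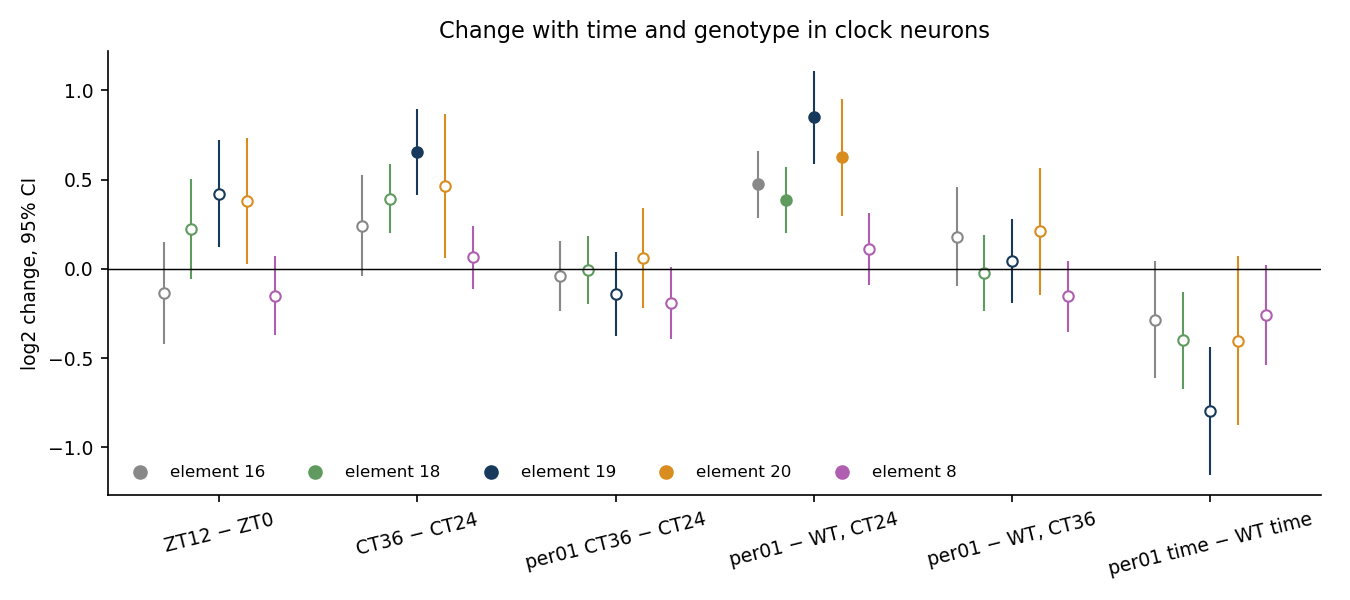
Change with time and genotype in clock neurons (y axis, log2 with 95% confidence intervals) for elements 8, 16, 18, 19 and 20, by comparison on the x axis, where filled points passed an adjusted p of 0.1. Element 19 changed by 0.65 from CT24 to CT36 in wild type, by -0.14 in per01, and by 0.85 between per01 and wild type at CT24.

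In wild-type non-clock cells elements 18 and 19 were higher in DD than in LD, and element 20 had no call. Element 19 was 4.93, 7.55 and 6.54 CPM in DD against 4.73, 4.79, 3.11 and 4.24 CPM in LD, a rise of 0.61 ± 0.18 on the log2 scale (adjusted p = 0.059). Element 18 was 8.25, 10.2 and 11.7 CPM against 8.59, 7.21, 6.87 and 7.81 CPM, a rise of 0.41 ± 0.12 (adjusted p = 0.054). Element 21 rose by 0.86 ± 0.22 (adjusted p = 0.038), and element 22, with no call in LD, stood at 0.71 in DD against the stand-in values. Without DD non-clock replicate 2 the calls of elements 18, 19 and 21 were lost, at 0.40, 0.48 and 0.78. That of element 19 was also lost without LD non-clock replicate 3 (0.47) or 4 (0.62) or DD replicate 3 (0.58), that of element 18 without LD replicate 2 (0.39) or 3 (0.37) or DD replicate 3 (0.30), and that of element 21 without DD replicate 3 (0.75). The summed glial list was 31.2 to 35.6 CPM in LD and 29.2 to 47.3 CPM in DD, and its part in these rises was not tested.

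The heights of all peaks in the stretch were also summed. The sum was 154 ± 6.26 CPM (SD, n = 4) at ZT0 and 158 ± 5.57 (n = 4) at ZT12, 170 ± 5.77 (n = 3) at CT24 and 176 ± 13.7 (n = 3) at CT36. In per01 it was 194 ± 6.31 (n = 4) at CT24 and 182 ± 7.21 (n = 4) at CT36, and in non-clock cells 146 ± 8.17 (n = 4) in LD, 176 ± 16.6 (n = 3) in DD and 171 ± 3.14 (n = 4) in per01. Over 12 comparisons the ratio of means lay between 0.938 and 1.20. By exact permutation tests in both directions (2-sided) on the sums, dusk and dawn gave p = 0.23 in LD and 0.50 in DD (adjusted p = 0.34 and 0.67), and with 3 libraries a group the smallest p possible in DD is 0.10. In per01 the sum was lower at CT36 than at CT24 and passed an adjusted p of 0.1 by that test. This call was lost in 6 of 8 fits without 1 library and in all 5 other settings. For per01 against wild type at CT24 the exact permutation p was 0.029 (adjusted p = 0.078), the smallest that 4 against 3 libraries allow. In all, 7 of 12 comparisons passed an adjusted p of 0.1 by the exact permutation tests, and 6 of these 7 did not pass with median-of-ratios scaling, clock neurons against non-clock cells in LD being the exception.

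Across the 33 libraries the genes whose summed height was most like that of Pdp1, of 6114 genes with a peak in every library, were retn (Pearson r = 0.83), CG31041 (r = 0.82) and lncRNA:CR42746 (r = 0.81). Over the 22 clock neuron libraries, the regions most like element 19 in scaled height, of 9631, were one on 3L at 17317535 to 17318355, 1614 bp from ND-24L (r = 0.93), one on 2L at 21712367 to 21712923 in nolo (r = 0.91) and one on 2L at 10029216 to 10029828 in CG13127 (r = 0.90). The points share library depth and cell composition, so these values only describe the libraries.

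The other genes of the clock loops were taken as a list of 14 genes with 109 regions (Clk, cyc, per, tim, vri, cwo, cry, dco, sgg, CkIIalpha, CkIIbeta, slmb, jet and nmo). In LD 1 of 65 tested regions was called (0.103% of all regions), at per (X, 2686518 to 2686863), which had a call in 4 of 4 libraries at ZT0 and 0 of 4 at ZT12, so no p is given for it. In DD 2 of 61 were called (0.635% of all regions), both higher at CT36, at vri (2L, 5303174 to 5303930, 0.65 ± 0.10, adjusted p = 0.019) and at tim (2L, 3507768 to 3508251, 0.80 ± 0.15, adjusted p = 0.062). In per01 at CT24, 11 of 66 regions were higher and 3 lower than in wild type (3.86% and 4.3% of all regions), with a median change of 0.08 against 0.01 over all regions, and at CT36 1 of 64 was higher (0.814%). The vri region rose in per01 at CT24 by 1.00 ± 0.12 (adjusted p = 0.00080), and a region of Clk (3L, 7772223 to 7772627) was called in 3 of 3 wild-type and 0 of 4 per01 libraries at that time. Between cell types in LD, 35 of 75 regions of these genes were higher and 14 lower in clock neurons (33.9% and 21.9% of all regions), with a median change of 0.17 against 0.04 over all regions. In DD 27 of 79 were higher and 22 lower (27.6% and 24.9% of all regions), and in per01 26 of 72 were higher and 13 lower (26.5% and 21.1%). Between the times in per01, limma called none of 59. The counts by genotype and cell type include regions with no call in any library of one group. Among them were regions of tim at CT24 (4 of 4 per01 and 0 of 3 wild-type libraries) and of CkIIbeta in LD (0 of 8 clock neuron and 4 of 4 non-clock libraries). Such regions had to differ, and their number was not counted here.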

How the data were processed

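Open chromatin was measured by ATAC-seq in 33 libraries. Per the paper's methods, reads were trimmed (cutadapt 4.1), aligned to dm6 (Bowtie2 2.4.5), cleared of mitochondrial reads (SAMtools 1.15.1) and duplicates (Picard 2.27.4), and peaks were called per library (MACS2 2.2.7.1, q of 0.001, ends extended over 74 bp). The authors deposited 1 list per library, without pooling. In the deposited lists, the fold enrichment is (tags + 1) over (expected tags + 1) at the summit, the −log10 p and −log10 q are those of MACS2, and the score column, a rescaled −log10 q, was not used. No column was left without a library (0).

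The tags at each summit were solved from the fold and the −log10 p, and were whole within 0.02 for 100% of the peaks. Total tags came from the genome-wide background. Peaks of all libraries sharing 1 bp were merged, the highest summit was the value, and a library with no call received its own lowest called tags. Testing needed calls in no fewer libraries than the smaller group has. Median-of-ratios scaling preceded limma (3.58.1, R 4.3.3, trended variance), which was fitted to log2 tags with a pseudocount of 1 in the libraries of the 2 groups concerned, and Benjamini-Hochberg adjustment covered every tested region. A fold change on that scale understates the change of low regions. Between the scalings the median of all regions moved by 0.11 (clock neurons against non-clock cells in LD) and 0.10 (per01 against wild type at CT36) on the log2 scale, and by less elsewhere. Recovery was tested on simulated data. Sums over the gene were compared with exact permutation tests. Scripts ran under Python 3.11.15 (scipy 1.17.1, pandas 2.3.3, numpy 2.4.6), with plots from matplotlib 3.10.9. The main tests did not pair libraries by replicate number. Deviations from the group mean were correlated between same-numbered libraries. For wild-type DD non-clock cells with CT24, the same number matched best each time (r = 0.067 to 0.13). For wild type with per01 at CT24 it never did. Whether the numbers pair the libraries is therefore not settled.

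Elements were described in full where a Pdp1 start lay within 250 bp or where any comparison called them (19 of 27), and the other 8 by ranges. The gene and the lists were chosen with earlier results of these data known. Gene models are those of Ensembl on the same assembly, and sequences those of RefSeq. Read counts per region were not used here.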

Additional observations from a re-analysis of the deposited data

Results flagged for a closer look

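Sets of 4 libraries of one group were taken for the elements described in full, where every library called the element, and for the summed heights, 81 sets in all. The highest or the lowest library was compared with the others by its gap over the range. Of these, 2 libraries stood apart, where chance gives about 1 set in 20. Element 9 in per01 non-clock cells was 15.9 CPM in replicate 1 against 13.6 CPM in the next library and 13.3 CPM in the lowest. Element 18 in per01 clock neurons at CT24 was 19.3 CPM in replicate 4 against 21.4 CPM in the next library and 21.7 CPM in the highest. Chance would give about 4.05 such sets of 81.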

How the results depend on the processing

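The tags are counts at called summits, so an element below the call limit of a library has no measured height there, and depth limits clock neurons more than non-clock cells. Among the calls that held without any 1 library were those of elements 18 and 19 between cell types in LD, DD and per01, of elements 8, 9, 11 and 15 in LD, and of elements 16 and 19 in per01 at CT24. Between regions built from overlapping peaks and regions built from summits within 100 bp of each other, the number of elements called changed from 1 to 0 in DD time, 0 to 1 in per01 time, 6 to 2 in per01 against wild type at CT24, 1 to 0 at dawn, 2 to 0 at dusk and 6 to 2 in non-clock cells by regime, and element 18 turned to -0.47 in per01 at CT24 and to -0.11 between cell types in per01. With missing calls at the local limit 2 elements were called in DD time and 2 at dawn, and in the comparisons of cell types element 13 turned to 0.52 (DD) and 0.75 (per01), element 14 to 0.33 (per01) and element 21 to 0.45 (DD) and 0.55 (per01). In 1 fit over all libraries 0 were called in DD time, 2 at dawn and 4 at dusk. At dusk 0 were called with total tags, 1 with the peaks of the compared libraries merged and 1 with no filter on calls. The cause of these changes was not tested.

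Without 1 library at a time the number of elements called was 0 to 1 in LD time, 0 to 2 in DD time, 0 to 1 in per01 time, 2 to 7 in per01 against wild type at CT24, 0 to 2 at dawn, 0 to 3 at dusk, 1 to 7 in non-clock cells by regime, 1 to 2 in non-clock cells by genotype and 0 to 1 for time by genotype. Element 19 in per01 against wild type at CT36 ran from -0.034 to 0.11.

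With the replicate number as a replicate block, 0 elements were called in DD time, 0 at dawn and 1 at dusk, and element 19 at CT36 changed by -0.032 between genotypes. Whether these numbers pair the libraries is not settled. For the sums the block left the ratios as they were and none passed, at 0.938 in per01 time, 1.14 in per01 against wild type at CT24, 1.07 (LD) and 1.10 (per01) between cell types, 1.10 at dawn, 1.11 at dusk and 1.20 in non-clock cells by regime, since the smallest exact p is larger under a block.

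The ratios of the sums also moved with the measure. With median-of-ratios scaling they were 0.931 in per01 time, 1.11 and 0.975 in per01 against wild type at CT24 and CT36, 1.01 (DD) and 1.05 (per01) between cell types, 1.03 at dawn, 1.07 at dusk, and 1.20 and 1.00 in non-clock cells by regime and by genotype. With the highest summit alone they were 0.913 in LD time, 0.881 in per01 time, 1.12 and 0.969 in per01 against wild type, 0.785 (LD) and 0.946 (per01) between cell types, 1.12 at dawn, 1.25 at dusk and 1.05 in non-clock cells by regime. With called length they were 0.981, 0.968 and 0.990 in LD, DD and per01 time, 0.884 and 0.904 in per01 against wild type, 0.898, 0.815 and 0.857 between cell types in LD, DD and per01, 0.987 at dawn, 0.974 at dusk and 1.08 in non-clock cells by regime. With a stricter q they were 0.934 in per01 time and 1.12 at dusk. Without 1 library at a time they ran from 0.923 to 0.951 in per01 time, 1.12 to 1.16 and 0.992 to 1.07 in per01 against wild type at CT24 and CT36, 1.04 to 1.08 and 0.934 to 1.01 between cell types in LD and DD, 1.09 to 1.12 at dawn, 1.07 to 1.16 at dusk, 1.17 to 1.27 in non-clock cells by regime and 0.923 to 1.00 by genotype. By exact permutation tests the per01 time call was lost in 6 of 8 such fits and the LD cell-type call in 5 of 12. The adjusted p reached 0.20 and 0.22 there. In per01 against wild type at CT24, at dawn, at dusk and in non-clock cells by regime the calls were lost in all 7 fits. In these comparisons the smallest possible exact p is larger with 1 library fewer, so these losses say nothing about stability. Over whole elements in place of windows, E-boxes lay in 7 of 27 elements and ACAATG in 7, against 7.26% and 21.2% of all regions.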
